A study of Rattus norvegicus with 6 samples.

Results

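The genes described here are 10 that carry the names of Paneth cell products in the rat: the alpha defensin genes Defa5, Defa6, Defa7, Defa8, Defa10 and Defa24, the lysozyme gene Lyz2, the protease gene Mmp7, the phospholipase gene Pla2g2a and the lectin gene Itln1. They were chosen by symbol, and each of the 10 had 1 row with exactly 1 gene symbol among the 14506 genes of the series. The RNA came from the ileum, the last stretch of the small intestine, of 20-week-old Zucker fa/fa rats, which are obese because their leptin receptor is defective. In 3 rats a duodenum-jejunum bypass (DJB) sent food past the duodenum and upper jejunum. In the other 3 rats a sham operation cut the bowel and rejoined it along its normal course, so both groups were obese, operated animals and no lean or unoperated rats enter the comparison. Tissue was taken 14 days after surgery, each rat had 1 Affymetrix whole-transcript array, and arrays are named by group and rat number. Values are log2 expression after RMA, changes are DJB minus sham on that scale with their standard error (SE), and a gene is said to have risen or fallen only where limma's adjusted p over all 14506 genes was under 0.05. The array medians ran from 6.08 to 6.19, the highest being that of 1 DJB array, and 3 arrays a group limit the precision.

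Paneth cells sit at the base of the small intestinal crypts, between the stem cells, and release granules of antimicrobial proteins into the lumen. Alpha defensins are small cysteine-rich peptides made as inactive precursors, and in the mouse matrilysin, the product of Mmp7, cuts the precursor to the active peptide. Lysozyme splits the bacterial cell wall and the secreted phospholipase A2 of Pla2g2a attacks bacterial membranes, while intelectin, the product of Itln1, binds sugars of microbial surfaces and is made by goblet cells as well as Paneth cells. The ileum is the segment where Paneth cells are most abundant. Because whole tissue was measured, fewer Paneth cells and less RNA in each of them cannot be told apart.

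After DJB none of the 10 genes passed the test. Defa6 differed by -0.68 log2 units (1.60-fold lower) and Itln1 by -1.51 (2.85-fold lower), and in both the 3 DJB values lay below the 3 sham values. Without sham 1, which stood far above the other sham arrays in Itln1, its difference was -0.71 (1.64-fold lower). The other defensins with a strong signal, Defa8 and Defa24, and Lyz2 were lower by smaller amounts with overlapping groups. Mmp7 and Pla2g2a were higher by 0.24 and 0.19, also with overlapping groups. Defa5, Defa7 and Defa10 had a weak signal on every array.

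By limma, 0 of the 10 genes passed at the adjusted threshold, where 0.772% of all genes tested did, and their adjusted p ran from 0.150 to 0.977. At an unadjusted p under 0.05, 3 of the 10 were lower (Defa6, Itln1 and Defa8) and 0 were higher, while 4.45% of all genes were lower and 9.82% higher at that threshold. Groups did not overlap, with DJB lower, in 2 of the 10, against 6.56% of all genes, and with DJB higher in 0 of the 10, against 14.5% of all genes. Of the 10, 5 were higher and 5 lower in value, with a median of -0.12, where the median of all genes was 0.05. These counts cover few genes that share a cell type, so they describe the list and do not set it apart from other genes.

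**Figure D1:**
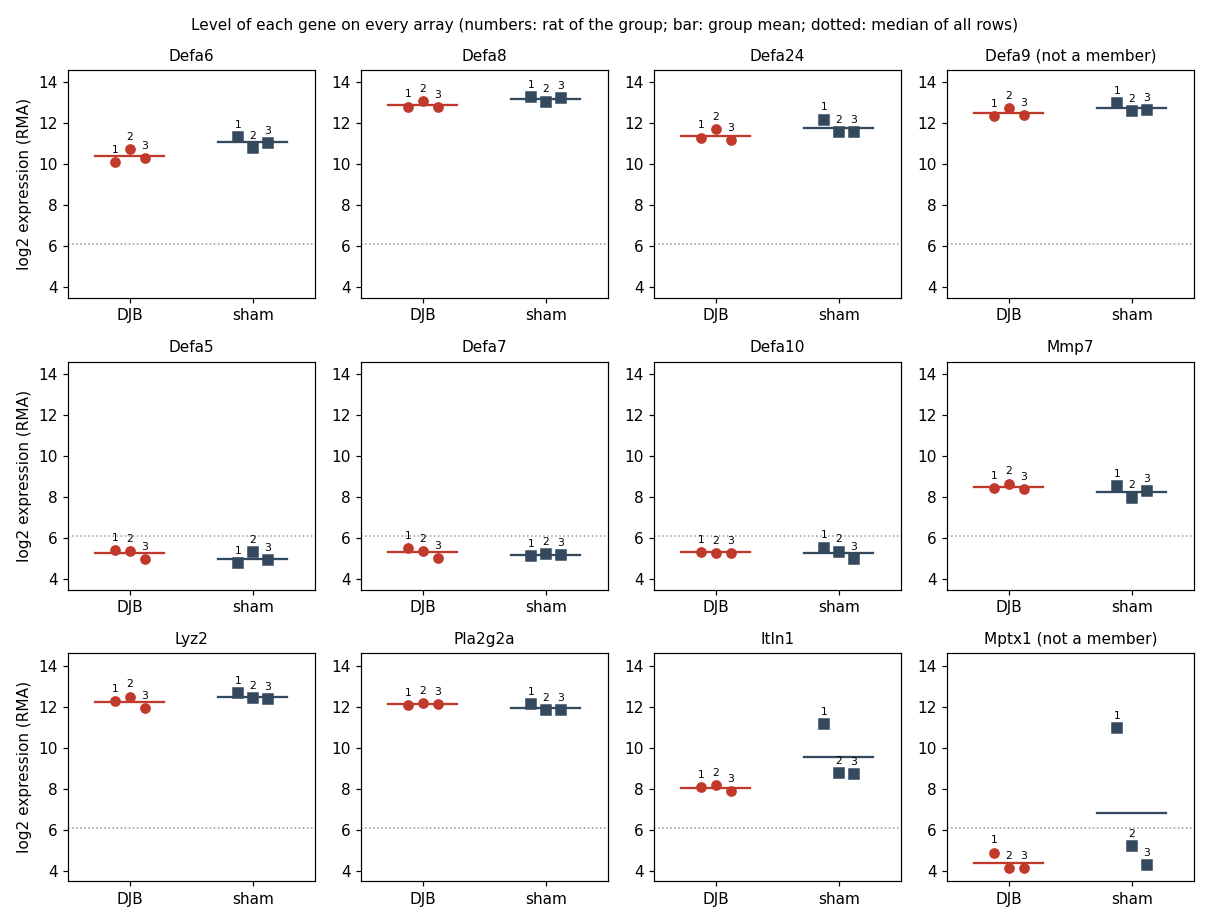
Each panel shows the log2 expression (RMA) of 1 gene on the 3 DJB arrays (red circles, left) and the 3 sham arrays (dark squares, right), numbered by rat, with a bar at the group mean and a dotted line at 6.11, the median of all rows. Defa6, Defa8, Defa24 and Defa9 lie far above the dotted line and Defa5, Defa7 and Defa10 below it, and sham 1 stands apart in Itln1 and Mptx1.

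The defensin rows fell into a strong and a weak set. Defa6, Defa8 and Defa24 lay above the median of all rows, 6.11, on all 6 arrays, and Defa5, Defa7 and Defa10 lay below it on all 6. The brightness of a row also depends on its probes, so the rows are not ranked by transcript here. RefSeq's gene table for the rat assembly GRCr8, used for names and gene order only, gives Defa7 and Defa10 as RNA genes with no protein (misc_RNA). It lists for Defa5 the older names ratNP-1 and ratNP-2, where NP stands for neutrophil peptide, and for Defa24 the older name Rd5, an enteric defensin of the rat. Of the 6 defensin genes, Defa6, Defa8 and Defa24 thus had both a protein in RefSeq and a strong row in the ileum. Defa5 had a protein in RefSeq but a weak row, and Defa7 and Defa10 are called defensins below by their symbols only. In that assembly the alpha defensin genes come in the order Defa5, Defa24, Defal1, Defa6, Defa7, Defa8, Defa9, Np4, Defa10, Defa11 and RatNP-3b, so the genes of strong and of weak rows are interspersed. The pseudogenes Defa5-ps2, Defal1-ps1 and Defa5-ps1 lie between them, and genes with only a provisional LOC symbol were left out. Alpha defensin genes are close copies of each other, and how far the probes of their rows cross-react was not tested, so their rows may not be independent of one another.

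Defa6, an alpha defensin, had 10.11, 10.72 and 10.31 in DJB 1 to 3, against 11.33, 10.80 and 11.04 in sham 1 to 3. Every DJB value was below every sham value, with DJB 2 just under sham 2. The group means were 10.38 ± 0.31 after DJB and 11.06 ± 0.26 after sham (SD, n = 3 each), and the change was -0.68 ± 0.18 (SE), with a 95% interval from -1.08 to -0.27. It did not pass over all genes (limma adjusted p = 0.150), and an exact two-sided permutation test of 3 against 3 arrays gave p = 0.1, the smallest this design allows. The change was -0.54 without DJB 1 or sham 1 and -0.85 without DJB 2, and it kept its sign whichever array was left out.

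Defa8, another alpha defensin, had 12.80, 13.09 and 12.79 in DJB 1 to 3 and 13.27, 13.05 and 13.20 in sham 1 to 3. DJB 2 lay above sham 2, and the other DJB arrays lay below all sham arrays. The change of -0.28 ± 0.12 (limma adjusted p = 0.319) had a 95% interval from -0.54 to -0.02, and the row is close to the top of the scale, whose highest value on any array was 14.1, where a difference can be understated.

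Defa24 had 11.29, 11.70 and 11.16 in DJB 1 to 3, against 12.17, 11.56 and 11.58 in sham 1 to 3. Sham 1 stood above the other 5 arrays, and DJB 2 was above the other 2 sham arrays. The change was -0.38 ± 0.19 (limma adjusted p = 0.409, 95% interval from -0.82 to 0.05), and without sham 1 it was -0.18.

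The 3 weak rows were all slightly higher in value after DJB, with overlapping groups. In each of them DJB 1 was the highest DJB array, as it was in 57.6% of all genes. Without DJB 1 the changes of Defa5, Defa7 and Defa10 were 0.17, 0.03 and -0.01. Defa5 had 5.44, 5.38 and 4.98 in DJB 1 to 3 and 4.77, 5.31 and 4.95 in sham 1 to 3, a change of 0.26 ± 0.17. Defa7 changed by 0.13 ± 0.13 and Defa10 by 0.01 ± 0.14, and the sign of Defa10 turned when arrays were centred on their median or quantile normalised again. None of the 3 passed (limma adjusted p from 0.520 to 0.977), and a level below the median of all rows gives these differences little weight.

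Outside the 10 genes, 2 further alpha defensin genes were measured. Defa9 had a strong row with 12.33, 12.73 and 12.39 in DJB 1 to 3 and 12.98, 12.60 and 12.62 in sham 1 to 3. It differed by -0.25 ± 0.14, with overlapping groups (limma adjusted p = 0.471), and by -0.13 without sham 1. Its highest DJB array was DJB 2 and its highest sham array was sham 1, as for Defa6, Defa8 and Defa24. Defa11 had a weak row, with a change of 0.29 ± 0.13 (limma adjusted p = 0.341). The 37 beta defensin genes, whose peptides are made mainly by other epithelia, held none that passed (limma adjusted p from 0.191), with changes from -0.23 to 0.36. Of them Defb25 alone lay above the median of all rows, by a small margin at 6.24, and Defb13, Defb19, Defb23 and Defb38 had weak rows in which every DJB value was above every sham value, 4 of 37 genes where 14.5% of all genes showed this.

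**Figure D2:**
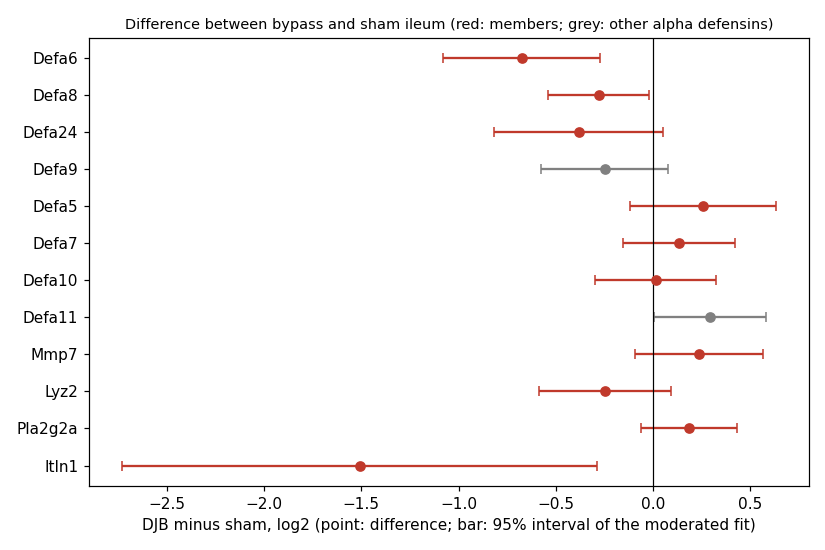
The difference DJB minus sham (log2) with its 95% interval from the moderated fit is shown for the 10 genes (red) and for the alpha defensins Defa9 and Defa11 (grey). The intervals of Defa6, Defa8 and Itln1 lie below 0 before adjustment for the number of genes tested, and that of Itln1 is the widest.

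Promoter windows were looked up for the 10 genes in a RefSeq table of GRCr8, running from 250 bases before to 50 after the annotated start. Windows were found for Lyz2, Mmp7, Pla2g2a and Itln1, and also for Defa9 and Defa11. They were searched on both strands for CTTTGAT and CTTTGTT, words bound by TCF/LEF factors of the Wnt pathway, and for TATAAA, the core of a TATA box. Paneth cell genes such as Mmp7 are known targets of Wnt signalling in the mouse, which is why these words were chosen. The 3 windows below are shown because they hold one of the words and belong to the processing protease, to a strong defensin row and to the gene with the widest difference. Capitals mark the words found, ATCAAAG being CTTTGAT on the other strand and TTTATA being TATAAA on the other strand.
Mmp7 (GRCr8, chr8:13132793-13133092, plus strand): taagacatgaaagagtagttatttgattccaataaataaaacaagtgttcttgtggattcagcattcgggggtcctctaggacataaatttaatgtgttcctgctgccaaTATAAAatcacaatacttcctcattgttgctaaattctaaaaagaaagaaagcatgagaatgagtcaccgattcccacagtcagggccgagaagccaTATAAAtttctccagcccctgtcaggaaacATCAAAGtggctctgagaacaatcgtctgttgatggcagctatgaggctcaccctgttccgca
Defa9 (GRCr8, chr16:77184018-77184317, plus strand): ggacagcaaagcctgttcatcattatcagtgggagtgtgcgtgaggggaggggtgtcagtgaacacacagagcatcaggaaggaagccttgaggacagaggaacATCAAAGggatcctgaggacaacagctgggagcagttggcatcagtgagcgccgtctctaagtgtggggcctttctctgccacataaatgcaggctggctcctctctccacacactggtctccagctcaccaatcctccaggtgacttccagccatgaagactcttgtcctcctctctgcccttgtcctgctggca
Itln1 (GRCr8, chr13:86480298-86480597, plus strand): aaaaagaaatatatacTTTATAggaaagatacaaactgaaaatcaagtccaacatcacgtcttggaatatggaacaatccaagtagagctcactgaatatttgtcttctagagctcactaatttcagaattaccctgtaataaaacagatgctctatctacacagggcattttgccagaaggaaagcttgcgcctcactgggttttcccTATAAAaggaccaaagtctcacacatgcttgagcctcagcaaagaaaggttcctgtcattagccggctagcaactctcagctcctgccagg
The Mmp7 window held ATCAAAG at 13 bases before the start and TATAAA at 43 and 140 bases before it, counted to the first base of the word. Defa9 held ATCAAAG at 146 bases before the start and no TATAAA. Itln1 held TATAAA at 41 bases and TTTATA at 234 bases before the start, and neither TCF/LEF word, and its window lies inside the annotated span of the gene. The windows of Lyz2, Pla2g2a and Defa11 held none of the words. Over the 33469 windows of the table, 3.63% held CTTTGAT, 5.98% held CTTTGTT and 14.2% held TATAAA, on either strand. These matches describe the letters of the windows and say nothing about binding in these rats.

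Mmp7, which encodes the protease that activates prodefensins in the mouse, had 8.42, 8.66 and 8.41 in DJB 1 to 3, against 8.53, 7.98 and 8.28 in sham 1 to 3. The groups overlapped, with DJB 2 the highest and sham 2 the lowest. The change was 0.24 ± 0.15 (limma adjusted p = 0.502, 95% interval from -0.10 to 0.57), in the direction opposite to that of the strong defensin rows, and it was 0.09 without sham 2 and 0.37 without sham 1. Whether the change of Mmp7 differed from that of the defensins was not tested.

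Genes for other proteases and their inhibitors that could act on prodefensins did not pass either. Of 14 listed, 12 were measured, 8 higher and 4 lower in value (median 0.14), with 0 past the adjusted threshold. Only 1 was lower and 0 were higher at an unadjusted p under 0.05, against 4.45% and 9.82% of all genes. Those of lowest p were Furin, a proprotein convertase, at -0.34 ± 0.13, and the trypsin inhibitor gene Spink1 at 0.35 ± 0.18. Prss2, a trypsinogen gene (trypsin cuts the defensin precursor in human Paneth cells), had a weak row and differed by 0.28 ± 0.17.

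Lyz2, the lysozyme gene, had 12.26, 12.50 and 11.94 in DJB 1 to 3 and 12.65, 12.43 and 12.36 in sham 1 to 3. The groups overlapped through DJB 2, which was above sham 2 and sham 3. The change was -0.25 ± 0.15 (limma adjusted p = 0.496, 95% interval from -0.59 to 0.09), and it was -0.10 without DJB 3 and -0.16 without sham 1. In the mouse one lysozyme gene serves Paneth cells and another serves macrophages, whereas RefSeq lists Lyz1 as an older name of rat Lyz2, so RNA of the 2 cell types cannot be told apart in this row.

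Macrophage and neutrophil markers were given beside it for that reason. Of the 17 measured, 15 were higher and 2 lower in value after DJB, where 8956 of all 14506 genes were higher. Their median change was 0.22 against 0.05 over all genes, and 0 passed the adjusted threshold. A further count, at an unadjusted p under 0.05, gave 5 higher and 0 lower, against 9.82% and 4.45% of all genes. The mean of these markers was 6.78 to 6.98 on the DJB arrays and 6.66 to 6.75 on the sham arrays. Cd14, the co-receptor for bacterial lipopolysaccharide, differed by 0.54 ± 0.12 (limma adjusted p = 0.108) and Cd163, a scavenger receptor of macrophages, by 0.45 ± 0.14 (limma adjusted p = 0.189). Only 11 of the 17 lay above the median of all rows. Among those, Mrc1, C1qb, C1qc and Itgam differed by -0.003, -0.006, 0.007 and 0.03. The rest of those were higher by 0.13 (C1qa) to 0.54 (Cd14). Most of the 17 markers were thus higher in value where Lyz2 was lower, some of them in weak rows. Their part in the Lyz2 signal was not tested.

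Pla2g2a, the secreted phospholipase, had 12.07, 12.19 and 12.13 in DJB 1 to 3, against 12.13, 11.86 and 11.84 in sham 1 to 3. Sham 1 lay among the DJB arrays and the other sham arrays below them. The change was 0.19 ± 0.11 (limma adjusted p = 0.479, 95% interval from -0.06 to 0.43), and 0.28 without sham 1.

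Itln1, the intelectin gene, had 8.09, 8.17 and 7.88 in DJB 1 to 3, against 11.15, 8.79 and 8.72 in sham 1 to 3. Every DJB value was below every sham value, and sham 1 was 2.36 log2 units above the next sham array. The means were 8.04 ± 0.15 after DJB and 9.55 ± 1.39 after sham (SD, n = 3 each), and the change of -1.51 ± 0.54 did not pass (limma adjusted p = 0.256; exact two-sided permutation p = 0.1, the smallest possible). Without sham 1 the change was -0.71 (limma adjusted p = 0.0795).

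Sham 1 also stood apart in Mptx1, a gene of the granule and antimicrobial list that was chosen for mention after its values were seen. Mptx1 encodes a mucosal pentraxin, a secreted protein of the gut lining. It had 4.90, 4.16 and 4.14 in DJB 1 to 3 and 10.96, 5.20 and 4.28 in sham 1 to 3, so 1 array carried a strong signal and the other 5 a weak one. Its change of -2.41 ± 1.40 did not pass (limma adjusted p = 0.472) and was -0.34 without sham 1. Among all 14506 genes, 3 had a sham 1 value at least 2 log2 units above each of the other 5 arrays, and these were Mptx1, Itln1 and Klrc3, a receptor gene of natural killer cells. The same held for 1 gene each on DJB 3 and sham 3 and for 0 genes on each of the other arrays.

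The 7 strong rows shared the highest array within each group. In Defa6, Defa8, Defa24, Lyz2, Mmp7, Pla2g2a and Itln1, DJB 2 was the highest of the DJB arrays in 7 of 7, and sham 1 was the highest of the sham arrays in 7 of 7. The lowest DJB array was DJB 3 in 5 and DJB 1 in 2 of them, and the lowest sham array was sham 2 in 4 and sham 3 in 3. Over all genes, DJB 1 was the highest DJB array in 57.6% and DJB 2 in 19.2%, and sham 1 was the highest sham array in 27.8%. Those shares are over strong and weak rows together. The defensin rows among the 7 may not be independent of one another. Over all 10 members DJB 2 was the highest in 7 and the lowest in 0, and sham 1 was the highest in 8 and the lowest in 2.

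**Figure D3:**
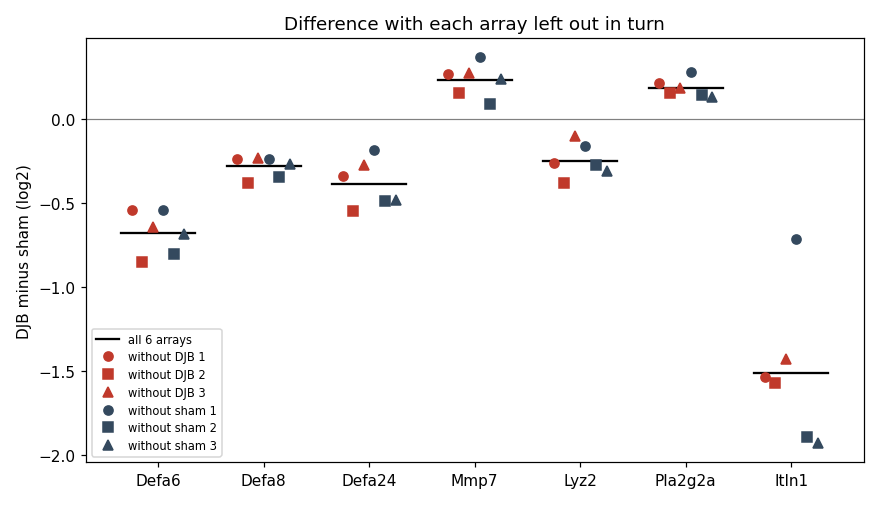
For each of the 7 genes with a strong row, the black bar gives the difference DJB minus sham (log2) over all 6 arrays and the points give it with 1 array left out (red for DJB arrays, dark for sham arrays). No point crosses 0, and the largest shift is that of Itln1 without sham 1, to -0.71.

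Goblet cells also make intelectin, and no goblet cell marker passed the test. Of 12 listed, 9 were measured, 4 higher and 5 lower in value (median -0.07), and 0 passed the adjusted threshold. At an unadjusted p under 0.05, 2 of the 9 were lower (Agr2 and Spdef) and 0 were higher, against 4.45% and 9.82% of all genes. In the same 2 every DJB value was below every sham value, which held for 6.56% of all genes. The list's mean was 9.76 on each DJB array and 9.79 to 9.88 on the sham arrays. Agr2, a folding helper for mucin, differed by -0.32 ± 0.11 and Spdef, a transcription factor of secretory cells, by -0.25 ± 0.10, while Clca1 (0.02 ± 0.10) and Tff3 (-0.07 ± 0.11), both goblet cell secretions, differed by less than their SE. The part of goblet cells in the Itln1 difference was not tested.

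Genes that specify Paneth cells, keep their crypt niche or serve their secretion showed no change that passed. Of 28 listed, 24 were measured, 9 higher and 15 lower in value, with a median of -0.08 and changes from -0.25 to 0.34. Spdef was among the lowest in p here too, beside the Notch ligand gene Dll4 at 0.34 ± 0.10 (limma adjusted p = 0.184). Atoh1, the factor that commits cells to the secretory lineage, differed by -0.14 ± 0.11 and Gfi1, which acts after it, by -0.19 ± 0.11. Xbp1, a factor that mouse Paneth cells need for their secretory pathway, differed by -0.10 ± 0.09, and Ephb3, a receptor that places Paneth cells at the crypt base in the mouse, by -0.01 ± 0.10. Atoh1, Gfi1, Xbp1 and Ephb3 are given for their roles, while Dll4 and Spdef, the genes of lowest p, had the highest and the lowest change of the list. At an unadjusted p under 0.05, 2 of the 24 were higher and 1 was lower, against 9.82% and 4.45% of all genes.

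The crypt stem cells next to the Paneth cells and the enterocytes of the villus were set beside them. Of 11 stem cell markers measured, 3 were higher and 8 lower in value and 0 passed. Of these, 1 was higher and 1 lower at an unadjusted p under 0.05, against 9.82% and 4.45% of all genes. Lgr5, the stem cell receptor, differed by -0.63 ± 0.15 (limma adjusted p = 0.122) and Prom1 by 0.38 ± 0.10 (limma adjusted p = 0.155). Olfm4, an abundant product of stem cells, differed by -0.02 ± 0.09. Of 11 enterocyte markers, 1 passed, where 0.772% of all genes did. This was Slc10a2, the ileal bile acid transporter, which rose by 1.73 ± 0.22 (limma adjusted p = 0.0106). With a trended, robust variance its limma adjusted p was 0.0511 and it no longer passed. Apoa4, an apolipoprotein, differed by -0.91 ± 0.17 (limma adjusted p = 0.0511) and Fabp6 by 0.30 ± 0.10 (limma adjusted p = 0.230). In the 11, 2 were higher and 1 lower at an unadjusted p under 0.05, against 9.82% and 4.45% of all genes. Groups did not overlap in 3 with DJB higher and in 2 with DJB lower, against 14.5% and 6.56%. The mean of the 11 was 12.3 to 12.5 on the DJB arrays and 12.2 to 12.6 on the sham arrays.

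Of the other granule and antimicrobial genes, 2 rose after DJB. Of 29 listed, 24 were measured, 18 higher and 6 lower in value (median 0.15), and those that rose were the C-type lectin genes Reg3b at 1.99 ± 0.17 and Reg3g at 1.68 ± 0.14 (limma adjusted p = 0.00114 for both). Reg3 lectins are made by enterocytes as well as Paneth cells. Of the 24, 7 were higher and 2 lower at an unadjusted p under 0.05, against 9.82% and 4.45% of all genes. Groups did not overlap in 7 with DJB higher and in 2 with DJB lower, against 14.5% and 6.56% of all genes. Among these, Reg1a differed by 0.73 ± 0.18 (limma adjusted p = 0.125). Nupr1, counted here by its place on the list only, differed by -0.35 ± 0.11 (limma adjusted p = 0.200). Lypd8 and Guca2b, also among these, had a lower p than both and are described under other observations. Ang2, of the angiogenin family of ribonucleases, differed by -0.01 ± 0.13. Of the 105 genes in the 7 lists set beside the Paneth cell genes, 3 passed the adjusted threshold, where 0.772% of all genes did. All 3 were higher after DJB.

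**Figure D4:**
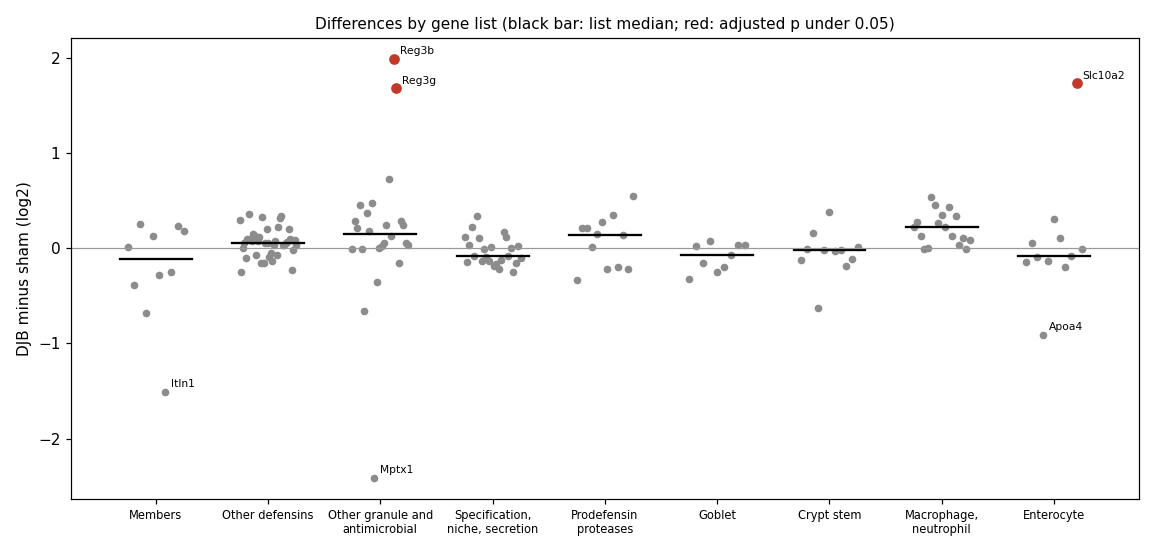
Each point is 1 measured gene, placed by its list and by its difference DJB minus sham (log2), with a black bar at the median of each list and red points where limma's adjusted p was under 0.05. The 3 red points are Reg3b, Reg3g and Slc10a2, none of them among the 10 Paneth cell genes.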

How the data were processed

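The deposited table holds log2 expression values of 29214 rows on 6 arrays; the authors made them with RMA (version not stated), per the submitters' processing notes. RMA corrects background, quantile normalises and summarises probes, which reduces a shift shared by most genes. The array medians still ran from 6.08 to 6.19, and 8956 of 14506 genes were higher in value after DJB. For the rows' genome build nothing is stated in the sources used here. Gene names came from the platform annotation: 15310 rows carried 1 symbol, 323 several and 13581 none. For a gene with several rows, the row with the highest mean was used. No filter was applied. Columns were matched to samples by accession.

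limma 3.58.1 (R 4.3.3; lmFit, eBayes, no covariate) compared 3 DJB with 3 sham arrays, with Benjamini-Hochberg adjustment over 14506 genes, and was tested on simulated data. Exact permutation tests used scipy 1.17.1 and figures matplotlib 3.10.9. The alternatives were the replicate block, 2 renormalisations, dim rows left out, trended robust variance, row averaging, all rows tested and each array left out.

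The members and lists were chosen with earlier results of these data known. Named were the members, alpha and beta defensins of note, called genes and the 2 of lowest p per list, the 5 genes most like the defensins, and genes given for their role or after their values were seen.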

Additional observations from a re-analysis of the deposited data

How the results depend on the processing

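None of the 10 Paneth cell genes passed under any of the 13 alternatives run, where their lowest adjusted p was 0.0778 (Defa6, with dim rows left out), and 123 of their 127 values under those alternatives kept the direction. The other 4 were Defa10 with arrays centred on their median (-0.017), with quantile normalisation repeated (-0.037), without DJB 1 and without sham 3 (from -0.14 to 0.14 with each array left out). Over all genes, 112 passed, against 225 with dim rows left out, 313 with trended robust variance, 50 with the replicate block and 33 to 108 with an array left out. Of the genes set beside the members, 3 passed, against 6 with dim rows left out, 7 with trended robust variance and 3 to 5 with an array left out. Under trended robust variance Cd14 (adjusted p = 0.0290), Lgr5 (0.0483) and Apoa4 (0.0415) passed and Slc10a2 did not, and Apoa4 also passed with arrays centred, with dim rows left out and without DJB 1. Fewer genes were tested with dim rows left out, and fewer arrays entered with an array left out, but the cause of these and the other changes was not tested. Replicate numbers did not pair the arrays: same-numbered deviations correlated at 0.005, -0.121 and -0.149, 1 of 6 arrays were closest to their own number, and with the replicate block Defa6 and Itln1 had adjusted p of 0.313 and 0.301. The number of arrays, and weak rows for Defa5, Defa7 and Defa10, limit what could be seen.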

Other observations

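Single arrays carried lone signals in 2 other genes. Nos2, which encodes the inducible nitric oxide synthase, was at 8.48 on DJB 3 and at 5.48 to 6.27 on the other 5 arrays. Btbd16 was at 7.21 on sham 3 and at 4.55 to 4.90 on the others.

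Outside the 10 genes, the 5 whose levels over the 6 arrays were most like the mean of the 6 defensin genes were Ubxn1, Slitrk4, Dnaaf4, Nsmf and Or52ae8b (Pearson r from 0.958 to 0.995, as a description over arrays of both groups). Counted over all genes, with the 10 not left out, 35 had an r above 0.9. None of the 5 passed the test, with changes from -0.25 to -0.08.

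Lypd8 and Guca2b, of the granule and antimicrobial list, did not pass and were chosen for mention after their values were seen. Lypd8 encodes a protein that keeps bacteria off the epithelium. It differed by 0.48 ± 0.09 (limma adjusted p = 0.0530), with every DJB value above every sham value. Guca2b, which encodes the peptide uroguanylin, differed by -0.66 ± 0.15 (limma adjusted p = 0.0989), with every DJB value below every sham value.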
